A study of Caenorhabditis remanei with 48 samples.

Results

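The effect of parental temperature was measured in first-stage larvae (L1) of the control-selected population of the nematode Caenorhabditis remanei. It was read from 8 of the 48 RNA sequencing libraries: the control-selected libraries of replicates 1 and 2, all labelled batch C. They fall into 4 groups of 2 libraries each: parents at 30 °C with larvae at 30 °C, parents at 30 °C with larvae at 20 °C, parents at 20 °C with larvae at 30 °C, and parents at 20 °C with larvae at 20 °C. Parents at 30 °C (4 libraries) were compared with parents at 20 °C (4 libraries), over both larval temperatures and at each one apart.

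The series holds 3 populations: control-selected, heat-selected and the ancestor PX443, from which both selected populations derive. All stocks were kept at 20 °C on plates with the bacterium E. coli OP50, and every group of larvae, whatever its temperatures, was obtained by bleaching, which leaves only embryos, and then spent 20 h in buffer without food. About 100000 filtered larvae were pooled for a replicate, and their polyadenylated RNA was sequenced. Each selection regime is a single population, and the labels do not say whether replicates were separate cultures, so the p-values measure only the spread between these samples, which may be technical.

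In nematodes the conditions of the parents can reach the offspring through what is loaded into the egg (messenger RNA, small RNAs, protein and yolk) and through marks carried on chromatin. L1 larvae that hatch without food halt their development and live on this provision. Heat by itself calls up heat shock proteins and other stress genes in the larva. No gene names could be matched to the deposited identifiers, so each gene is given by its identifier without a role, and the labelled stage could not be checked against marker genes.

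Counts in genes ran from 2476342 to 6617493 per library (median 4248228). The shallowest library was replicate 1 of parents at 20 °C with larvae at 30 °C, which also had the highest scaling factor (1.253, against 0.869 as the lowest). Reads not aligned made up 16.06 and 31.4% with both generations at 30 °C, 17.5 and 14.98% with parents at 20 °C and larvae at 30 °C, 13.1% in both libraries with parents at 30 °C and larvae at 20 °C, and 17.4 and 21% with both at 20 °C. Replicate 2 of the group with both generations at 30 °C stands apart by this measure. The biological coefficient of variation was 20.8%. Replicates 1 and 2 of a group differed by a median of 0.294 to 0.456 on the log2 scale across genes. In a principal component analysis the first component (37.1% of the variance) separated the 4 libraries of larvae at 30 °C from the 4 of larvae at 20 °C. The third (12.8%) had the parents at 30 °C above the parents at 20 °C in all 8 libraries.

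Few genes differed with parental temperature when both larval temperatures were fitted together. Of 11906 genes tested, 18 (0.151%) passed a Benjamini-Hochberg adjusted p of 0.05 in edgeR's quasi-likelihood test with larval temperature as a covariate, 14 of them higher (0.118%) and 4 lower (0.0336%) with parents at 30 °C. At an unadjusted p under 0.05 there were 901 genes. The called changes ran from 1.01 to 2.61 on the log2 scale in size, while the median over all tested genes was 0.0042. Since the tissue is a whole larva, fewer cells of a type and less RNA per cell cannot be told apart.

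The naming rule, set for identifiers without gene names, takes the 2 largest rises and the 2 largest falls. CRE27885, on linkage group 4, had 2.96 and 2.52 CPM (a library-size-scaled read count, with TMM normalization) with parents at 30 °C, against 0.267 and 0 CPM with parents at 20 °C, in larvae at 30 °C. In larvae at 20 °C it had 6.07 and 6.97 CPM with parents at 30 °C, against 1.54 and 1.31 CPM with parents at 20 °C. All 4 libraries of heated parents lay above all 4 of unheated parents, and the fitted log2 fold change was 2.61 ± 0.44 (SE; edgeR adjusted p = 0.034). CRE21750 likewise stood at 3.74, 2.67, 5.17 and 3.8 CPM with parents at 30 °C, against 0.267, 0.693, 0.965 and 0.939 CPM with parents at 20 °C (larvae at 30, 30, 20 and 20 °C in each group), again without overlap (2.39 ± 0.41, adjusted p = 0.034). Both are weakly expressed genes, and CRE27885 rests on a single read in the 2 libraries with parents at 20 °C and larvae at 30 °C. Both passed the filter on low counts only through libraries of heated parents, where they are high, so the lack of overlap is no further support.

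The 2 largest falls were in better covered genes. CRE10232, on linkage group 4, had 2.76 and 5.79 CPM with parents at 30 °C, against 15.2 and 23.1 CPM with parents at 20 °C, in larvae at 30 °C. In larvae at 20 °C the values were 8.56 and 7.18 CPM with parents at 30 °C, against 57.5 and 40.6 CPM with parents at 20 °C. Heated parents thus gave the lower value in every library, and CRE10232 fell by 2.39 ± 0.26 (SE) on the log2 scale, with the lowest adjusted p of the 18 (0.0028). CRE27096 had 4.92, 13.2, 9.1 and 4.22 CPM with parents at 30 °C, against 24.8, 51.8, 79.9 and 31.2 CPM with parents at 20 °C (larvae at 30, 30, 20 and 20 °C), also without overlap. Its log2 fold change was −2.52 ± 0.40 (adjusted p = 0.024). Of the 18 calls, CRE10232 was still made when each of the 8 libraries was left out in turn.

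The other 2 genes that fell, named here after their values were seen, were CRE27250 and CRE20806. CRE27250 averaged 8.88 ± 2.63 CPM with parents at 30 °C and 37.7 ± 16.6 CPM with parents at 20 °C (SD, n = 4 each), with a log2 fold change of −2.03 ± 0.33. CRE20806 averaged 2.6 ± 0.85 CPM with parents at 30 °C and 9.75 ± 2.79 CPM with parents at 20 °C (−1.91 ± 0.31). Both had an adjusted p of 0.025, and in both the 4 libraries of heated parents lay below the 4 of unheated parents.

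Among the remaining 12 genes that rose, also named after their values were seen, CRE21032 had the highest level. It stood at 539 and 517 CPM with parents at 30 °C, against 112 and 88.7 CPM with parents at 20 °C, in larvae at 30 °C. The values in larvae at 20 °C were 947 and 892 CPM with parents at 30 °C, against 382 and 476 CPM with parents at 20 °C. The 4 libraries of heated parents were again the highest (1.75 ± 0.27, adjusted p = 0.022), and larvae at 30 °C were lower than larvae at 20 °C under either parental temperature. CRE09194 averaged 118 ± 64.1 CPM with parents at 30 °C and 23.1 ± 6.33 CPM with parents at 20 °C (SD, n = 4 each; 2.36 ± 0.32). CRE08829 had the smallest called change, at 135 ± 27.1 CPM with parents at 30 °C and 68.7 ± 20.7 CPM with parents at 20 °C (1.01 ± 0.18). The other 9 were CRE_PX356_1851, CRE22579, CRE16853, CRE06457, CRE12932, CRE12975, CRE02401, CRE22569 and CRE22494, with log2 fold changes from 1.31 (CRE22494) to 2.31 (CRE_PX356_1851). CRE_PX356_1851 is also weakly expressed and passed the filter on low counts only through libraries of heated parents.

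Across the 18 genes the groups did not overlap in 11 when the 4 libraries of heated parents were set against the 4 of unheated parents, and in all 18 within each larval temperature (2 libraries against 2). Over all tested genes the 4 against 4 comparison was free of overlap in 2.73%. For 2 libraries against 2 the share over all genes was not counted, and such a split can arise by order alone. The 18 were also called from these same libraries, which favours groups without overlap, so neither count is further support for the calls. Of the 7 that overlapped, CRE06457, CRE22569, CRE16853, CRE12932 and CRE12975 had a larval difference of at least 1.38 in size on the log2 scale under either parental temperature. CRE02401 and CRE22494 had smaller ones (1.09 and −0.57 with parents at 30 °C, against 0.61 and −1.07 with parents at 20 °C). CRE12932, which has the lowest adjusted p of the 7 for larval temperature, had 330 and 265 CPM with parents at 30 °C, against 134 and 106 CPM with parents at 20 °C, in larvae at 20 °C. In larvae at 30 °C it had 52.6 and 49.6 CPM with parents at 30 °C, against 12.8 and 17.8 CPM with parents at 20 °C. In CRE12932 the parental difference was therefore of like size on both sides of a larger larval difference. The names of the gene models put 9 of the 18 on linkage groups and the rest on scaffolds. Neighbours could be sought only among genes matched to a locus tag of the PX506 assembly, 12 of the 18 and 9448 of the 11906 tested. Among these no neighbours were called together. CRE12932 and CRE12975 share scaffold 464, but CRE12975 has no locus tag, so this pair could not be examined. For the calls in larvae at 30 °C, given below, 3 runs of neighbours were found, none longer than 2 genes.

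**Figure D1:**
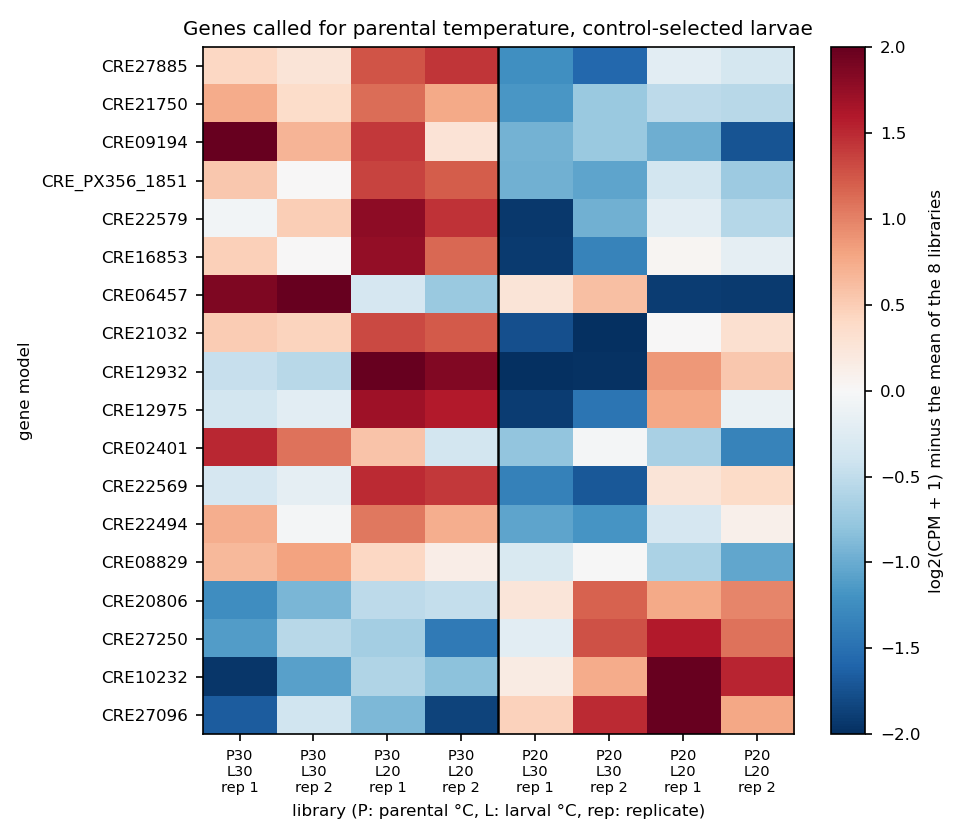
The 18 genes called for parental temperature (rows) in the 8 libraries (columns), parents at 30 °C left and parents at 20 °C right of the line. Colour gives log2(CPM + 1) minus the gene's mean over the 8 libraries; 14 genes are redder on the left and 4 bluer, and CRE12932 and CRE06457 also show the larval difference.

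The count depended on single libraries. It ran from 2 without replicate 2 of parents at 20 °C with larvae at 30 °C to 41 without replicate 2 of parents at 30 °C with larvae at 20 °C. Scaled to total counts in genes, 6 genes were called higher and 4 lower, all among the 18.

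At 30 °C, where the larvae themselves were heated, 43 of 11906 genes (0.361%) passed edgeR's test for parental temperature, 19 higher (0.16%) and 24 lower (0.202%) with parents at 30 °C. The falls were the larger changes. Among called genes above the level the naming rule asks for (log2 CPM of 1 or more on average), the largest falls were those of CRE_PX356_1375 and CRE02924. CRE_PX356_1375, on linkage group 2, had 0.394 and 0 CPM with parents at 30 °C, against 5.07 and 4.16 CPM with parents at 20 °C. That is a ratio of 0.037 (exact 95% counting interval 0.00432 to 0.143, for counting error only), with an adjusted p of 0.028. The gene passed the filter on low counts only through the 2 libraries with parents at 20 °C and larvae at 30 °C, where it is high (19 and 18 reads). CRE02924 had 1.97 and 0.594 CPM with parents at 30 °C, against 13.9 and 29.8 CPM with parents at 20 °C (−4.17 ± 0.52, adjusted p = 0.0021). Larvae at 20 °C showed no such fall in either gene: CRE02924 had 12.8 and 9.51 CPM with parents at 30 °C, against 7.92 and 6.57 CPM with parents at 20 °C.

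The largest rises in larvae at 30 °C were those of CRE15925 and CRE12976. CRE15925 had 3.74 and 2.67 CPM with parents at 30 °C, against 0.267 and 0 CPM with parents at 20 °C. The unheated group held a single read, so the ratio of 25.3 has an exact 95% counting interval of 4.27 to 1026, and the adjusted p was 0.049. Without the libraries of heated parents this gene would not have passed the filter on low counts. CRE12976, which lies on scaffold 464 like CRE12932 and CRE12975, had 91 and 111 CPM with parents at 30 °C, against 12.8 and 19.9 CPM with parents at 20 °C (2.60 ± 0.38, adjusted p = 0.0091). In larvae at 20 °C it had 188 and 94.6 CPM with parents at 30 °C, against 101 and 51.8 CPM with parents at 20 °C, and the ranges overlap there.

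The genes that rose and those that fell at 30 °C differed in what they did at 20 °C. Of the 19 that rose, 17 also had a positive log2 fold change in larvae at 20 °C, with a median of 1.83 at 30 °C and 0.708 at 20 °C. Of the 24 that fell, 10 had a negative one at 20 °C, with a median of −2.25 at 30 °C and 0.145 at 20 °C. Over all tested genes the signs at the 2 larval temperatures matched in 46.4%. The effects at the 2 larval temperatures share no library.

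The genes lowered by heated parents at 30 °C were largely genes that larval heat raised in another batch. This was read in the control-selected libraries of batch D (parents at 20 °C, 4 libraries at each larval temperature), which share none with batch C. There 3550 of 10206 genes (34.8%) passed for larval temperature, 1772 higher (17.4%) and 1778 lower (17.4%) in larvae at 30 °C. Of the 22 fallen genes tested in batch D, 16 were raised by larval heat and 0 lowered. A fall at 30 °C is picked in part by a high level in heated larvae of unheated parents, which favours genes raised there. Of the 17 risen genes tested there, 4 were raised and 9 lowered. The 4 genes that fell over both larval temperatures (CRE27096, CRE10232, CRE27250 and CRE20806) were all raised by larval heat in batch D, while of 11 that rose and were tested, 4 were raised and 6 lowered. In batch C itself these 4 were not higher in heated larvae of unheated parents: the larval log2 fold change with parents at 20 °C was −1.34 ± 0.32 for CRE10232 (adjusted p = 0.024), −0.52 ± 0.47 for CRE27096, −0.64 ± 0.40 for CRE27250 and −0.07 ± 0.38 for CRE20806.

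Leaving out 1 library took the count at 30 °C from 5 (without replicate 2 of both generations at 30 °C) to 127 (without replicate 2 of parents at 20 °C with larvae at 30 °C), and to 7 without replicate 1 of both generations at 30 °C and 15 without replicate 1 of parents at 20 °C with larvae at 30 °C. With the percent of reads not aligned as a covariate, which is highest in replicate 2 of both generations at 30 °C, 0 genes passed in edgeR (879 had an unadjusted p under 0.05), and scaled to total counts it called 9 higher and 22 lower.

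**Figure D2:**
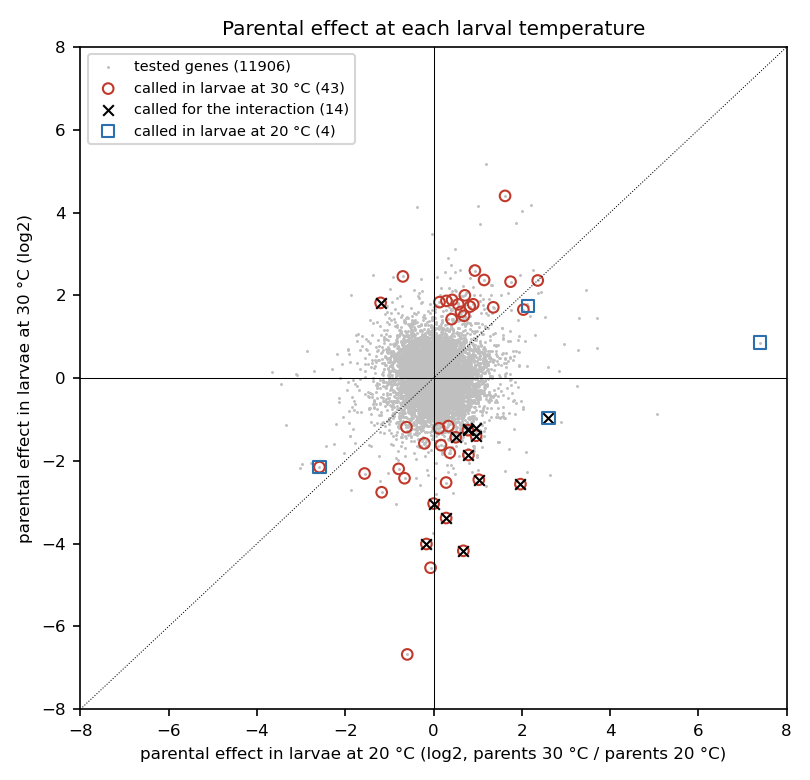
Log2 fold change of parents at 30 °C over parents at 20 °C for each tested gene, in larvae at 20 °C (x axis) and at 30 °C (y axis), with the calls of each comparison marked. The 19 rises at 30 °C lie mostly right of 0 on the x axis, the 24 falls lie on both sides, and the dotted line marks equal effects.

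At 20 °C, 4 of 11906 genes (0.0336%) passed edgeR's test, 3 higher (0.0252%) and 1 lower (0.0084%) with parents at 30 °C, while 971 had an unadjusted p under 0.05. CRE16387, on linkage group 4, had 4.82 and 3.17 CPM with parents at 30 °C and no read in either library with parents at 20 °C, so it was at least 14.2-fold higher (against 3 counts over the 2 libraries; adjusted p = 0.046). Without the libraries of heated parents it would not have passed the filter on low counts. CRE30999 had 17.5 and 11.8 CPM with parents at 30 °C, against 2.51 and 2.44 CPM with parents at 20 °C (2.60 ± 0.40, adjusted p = 0.043). CRE22579, the third rise and named after its value was seen, had 54.1 and 42.2 CPM with parents at 30 °C, against 12.7 and 9.76 CPM with parents at 20 °C (2.14 ± 0.33, adjusted p = 0.043). The single fall was that of CRE10232, described above (−2.59 ± 0.34, adjusted p = 0.025).

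None of the 4 calls at 20 °C was made without replicate 1 of parents at 20 °C with larvae at 20 °C, without either replicate of parents at 30 °C with larvae at 20 °C, or with the percent of reads not aligned as a covariate (edgeR, 548, 720, 660 and 505 genes at an unadjusted p under 0.05). Without another single library the count ran up to 14, and scaled to total counts it was 4 higher and 4 lower.

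Whether parental temperature acted differently at the 2 larval temperatures was tested as an interaction, the effect in larvae at 30 °C minus that in larvae at 20 °C. Of 11906 genes 14 (0.118%) passed, 1 higher (0.0084%) and 13 lower (0.109%). CRE15096 was the single gene with a positive difference. In larvae at 30 °C it had 12.8 and 9.65 CPM with parents at 30 °C, against 3.2 and 3 CPM with parents at 20 °C. In larvae at 20 °C it had 13.4 and 14.4 CPM with parents at 30 °C, against 37.1 and 28.7 CPM with parents at 20 °C. Heated parents thus gave the higher value at one larval temperature and the lower at the other, and the 4 libraries of heated parents all lay between 9.65 and 14.4 CPM (difference 3.02 ± 0.45, edgeR adjusted p = 0.013).

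CRE02924 and CRE24499 had the most negative interactions. For CRE02924, whose values stand above, the difference between effects was −4.85 ± 0.67 (adjusted p = 0.011). CRE24499 had 4.33 and 2.67 CPM with parents at 30 °C, against 13.6 and 26.6 CPM with parents at 20 °C, in larvae at 30 °C. In larvae at 20 °C it had 14.1 and 15.6 CPM with parents at 30 °C, against 3.09 and 4.69 CPM with parents at 20 °C (−4.53 ± 0.57, adjusted p = 0.011). The order of the parental groups was reversed between larval temperatures, with no overlap at either.

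Another shape appeared among the other negative interactions, which were named after their values were seen. CRE01964 had 80.6 and 66.1 CPM with parents at 30 °C, against 482 and 701 CPM with parents at 20 °C, in larvae at 30 °C. In larvae at 20 °C it had 71.7 and 64.2 CPM with parents at 30 °C, against 89.8 and 50.5 CPM with parents at 20 °C. Larvae of unheated parents were thus higher at 30 °C, and larvae of heated parents had like levels at both temperatures (difference −3.04 ± 0.43, adjusted p = 0.011).

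CRE20636 and CRE18121 had the same shape. CRE20636 stood at 15 and 10.5 CPM with parents at 30 °C, against 160 and 99.8 CPM with parents at 20 °C, in larvae at 30 °C (interaction −3.67 ± 0.52, adjusted p = 0.011). In larvae at 20 °C it lay between 4.69 and 10.6 CPM in all 4 libraries. CRE18121 stood at 1.18 and 2.97 CPM with parents at 30 °C, against 28 and 40.9 CPM with parents at 20 °C, in larvae at 30 °C, and between 2.25 and 5.6 CPM in the 4 libraries of larvae at 20 °C (−3.85 ± 0.68, adjusted p = 0.047).

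In batch D these 3 genes were raised by larval heat, CRE01964 by 3.77 ± 0.18, CRE20636 by 4.36 ± 0.23 and CRE18121 by 4.25 ± 0.37 on the log2 scale. Of the 13 interaction genes tested there, 10 were called for larval heat with the sign opposite to the interaction and 0 with the same sign. Over all genes tested in batch D, 17.4% were called higher and 17.4% lower. The interaction holds the larval response with parents at 20 °C with a minus sign. Picking genes by it therefore favours the opposite sign in batch D, and the count is no separate support. The remaining 8 interaction genes were CRE30999, CRE30261, CRE25283, CRE21959, CRE11522, CRE05474, CRE02128 and CRE04131. In 11 of the 14 the parental groups did not overlap in larvae at 20 °C, and in all 14 they did not in larvae at 30 °C. For these splits the share over all tested genes was not counted. The 14 were called from the same batch C libraries, which favours groups without overlap, so neither count is further support for the calls.

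**Figure D3:**
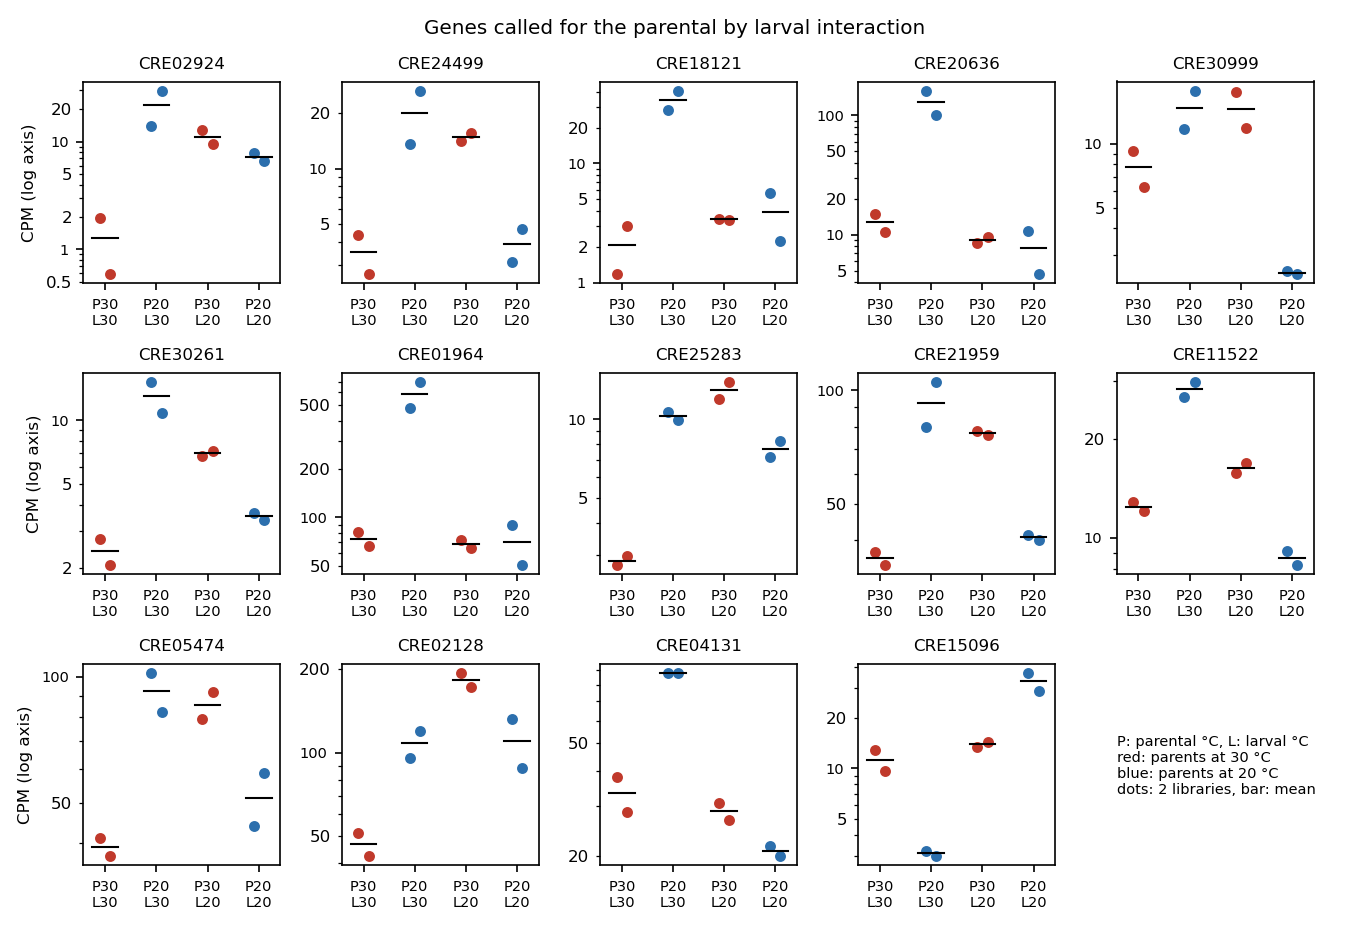
CPM (log axis) of the 14 genes called for the interaction in each of the 8 libraries, with larvae at 30 °C on the left of each panel, larvae at 20 °C on the right, parents at 30 °C in red and parents at 20 °C in blue. Bars are the means of 2 libraries; in CRE01964, CRE20636 and CRE18121 the blue points at 30 °C stand above all others, and in CRE15096 below them.

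The 14 interaction calls rested on few libraries. In edgeR 0 genes passed without replicate 2 of both generations at 30 °C (687 had an unadjusted p under 0.05) and 0 with the percent of reads not aligned as a covariate (499), 1 without replicate 1 of parents at 30 °C with larvae at 20 °C, 4 without replicate 1 of both generations at 30 °C, and 86 without replicate 2 of parents at 20 °C with larvae at 30 °C.

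The larval heat response was described with lists taken from batch D, and the full lists showed little parental difference. Over the 1720 genes raised there and tested in batch C, the median larval response in batch C was 0.435 with parents at 30 °C and 0.393 with parents at 20 °C. Over the 1778 lowered genes it was −0.511 with parents at 30 °C and −0.523 with parents at 20 °C. Their median parental effect in larvae at 30 °C was 0.0383 for the raised and 0.0685 for the lowered genes.

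The strongest responders differed from the full lists. Among the 117 genes tested in batch C that larval heat raised there by at least 2 on the log2 scale, the median larval response in batch C was 0.582 with parents at 30 °C and 0.841 with parents at 20 °C. Among the 63 lowered by at least 2 it was −1.38 with parents at 30 °C and −2.08 with parents at 20 °C. Over all tested genes the medians were −0.0288 and 0.0217. The parental effect of these shorter lists in larvae at 30 °C had a median of −0.381 for the raised and 0.584 for the lowered genes, against −0.0225 over all genes. By these medians heated parents were on the side of a smaller larval difference in both shorter lists, while the full raised list lay on the other side. Gene by gene, the interaction of the shorter raised list was near that of all genes. Its median was −0.143 with 44.4% positive, against −0.0709 and 45.7% over all genes. The shorter lowered list had 0.182 and 63.5%.

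Levels in heated larvae differed between the batches. CRE18316 and CRE_PX356_1986, the largest larval rises in batch D, had 221 to 1096 and 982 to 11750 CPM in its 4 libraries at 30 °C. In batch C at 30 °C, CRE18316 had 35.3 and 16 CPM with parents at 30 °C, against 75 and 81.5 CPM with parents at 20 °C. CRE_PX356_1986 had 59.5 and 63.9 CPM with parents at 30 °C, against 66.7 and 81.8 CPM with parents at 20 °C. Neither parental difference passed the test (adjusted p = 0.31 and 0.88). The largest larval falls, CRE19026 and CRE24133, were low at 30 °C in batch C too, where CRE19026 had 0.788 and 0.148 CPM with parents at 30 °C, against 1.07 and 0 CPM with parents at 20 °C. CRE24133 had 2.76 and 4.75 CPM with parents at 30 °C, against 1.6 and 1.16 CPM with parents at 20 °C, in the same larvae.

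**Figure D4:**
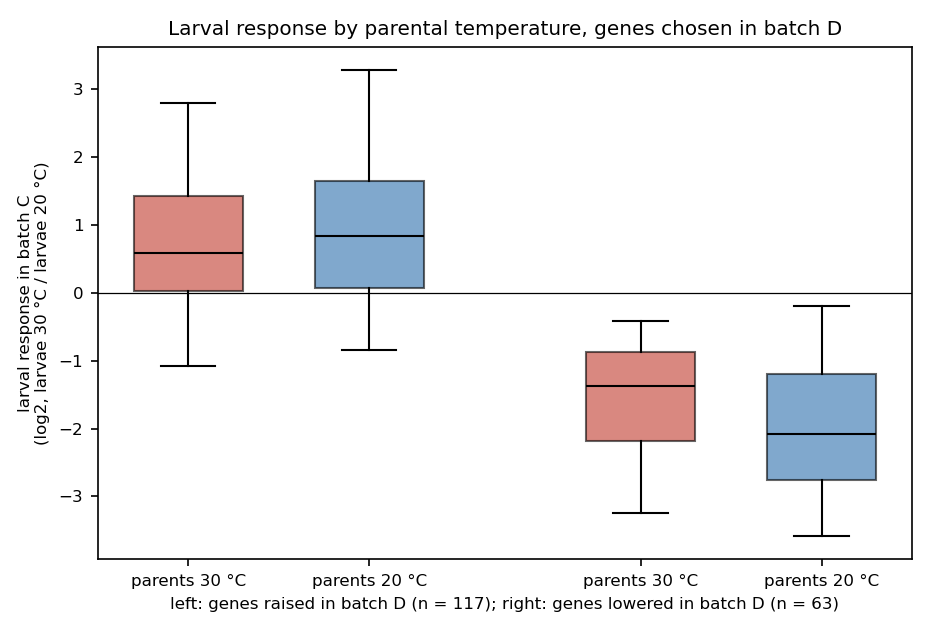
Larval response in batch C (log2, larvae at 30 °C over larvae at 20 °C) with parents at 30 °C (red) and at 20 °C (blue), for 117 genes raised (left) and 63 lowered (right) by at least 2 in batch D. Boxes span the quartiles, lines the medians and whiskers the 5th to 95th percentiles. The medians with parents at 30 °C lie nearer to 0 on both sides, which the full list of 1720 raised genes does not show (0.435 with parents at 30 °C, 0.393 with parents at 20 °C). The interaction was positive in 44.4% of the 117 raised and 63.5% of the 63 lowered genes, against 45.7% of all tested genes.

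The same parental contrast was set beside that of the other populations, whose libraries (batches E and A) are shared with none of these. In heat-selected larvae 1231 of 13005 genes (9.47%) passed, 666 higher (5.12%) and 565 lower (4.34%), and in the ancestor 653 (5.02%), 490 higher (3.77%) and 163 lower (1.25%). The order of these counts depends on the fit: with the 8 libraries of each population fitted alone, as for the control-selected 18, they were 343 in heat-selected larvae and 1784 in the ancestor. Scaled to total counts, 252 ancestor genes were higher and 291 lower, which turns the majority. Of the 18 control-selected calls, all 18 had the same sign in heat-selected larvae and 13 were called there with that sign, which is 1.06% of the heat-selected calls. In the ancestor 11 of the 18 had the same sign and 4 were called with it, 0.613% of the ancestor calls. Over all tested genes the signs matched in 64.3% for heat-selected larvae and 53.9% for the ancestor.

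CRE27885 was among the largest rises in heat-selected larvae. It stood there at 3.76, 2.9, 10.6 and 11.5 CPM with parents at 30 °C, against 0, 0, 0.747 and 0.867 CPM with parents at 20 °C (larvae at 30, 30, 20 and 20 °C), without overlap. In the ancestor its log2 fold change was 1.39 ± 0.35 (adjusted p = 0.025). CRE21032 rose by 2.15 ± 0.16 in heat-selected larvae (adjusted p = 2.6e-08), and its ancestor value was 0.52 ± 0.15 (adjusted p = 0.055). Genes called in all 3 populations were CRE27885, CRE22579 and CRE06457, while CRE12932 was called in the ancestor (1.18 ± 0.18) but not in heat-selected larvae (0.56 ± 0.18, adjusted p = 0.055).

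The lists can be read the other way. Of the 666 genes raised by heated parents in heat-selected larvae, 645 were tested in batch C. There 84.2% had a positive log2 fold change and 12 were called higher, against 50.6% positive over all genes. Of the 565 lowered genes, 543 were tested and 20.3% were positive, 1 called lower. The 490 genes raised in the ancestor, of which 455 were tested, split by larval temperature: 66.6% were positive in control-selected larvae at 20 °C and 40% at 30 °C, against 53.4 and 48.1% over all genes. The median interaction of that ancestor list was −0.393, against −0.0709 over all genes.

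**Figure D5:**
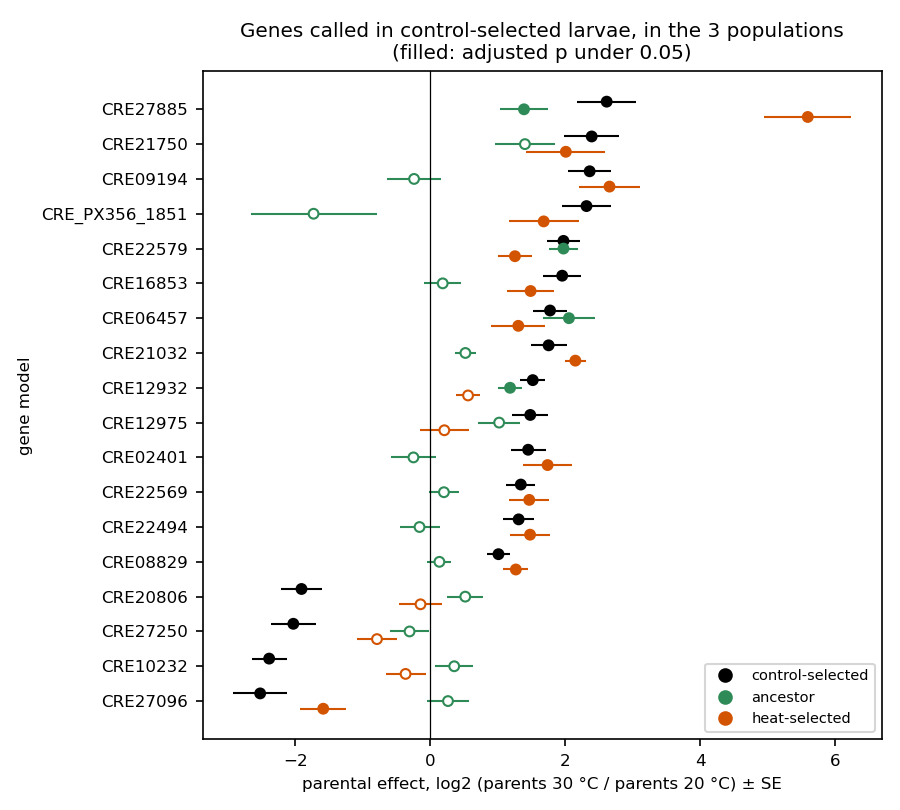
Parental effect (log2, parents at 30 °C over parents at 20 °C, ± SE of the fit) of the 18 genes called in control-selected larvae, in each population, with filled symbols for an adjusted p under 0.05. Heat-selected values lie on the same side of 0 as control-selected values in all 18 genes, and ancestor values in 11.

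The difference between populations was tested itself, as the control-selected parental effect minus that of another population, averaged over larval temperatures in 1 fit of 24 libraries. Against the ancestor 223 of 13005 genes (1.71%) differed, 53 with a higher (0.408%) and 170 with a lower effect (1.31%) in control-selected larvae. Scaled to total counts, 63 were higher and 109 lower. The fitted signs were opposite in 202 of the 218 that were also tested in batch C alone. These genes were picked for a difference between the same effects, which favours opposite signs, so the count is no separate support. Over all tested genes the signs matched in 53.9%. In the ancestor 184 of the 223 were called, against 5.02% over all genes, and in control-selected larvae 7 of the 218, against 0.151%. Both effects are part of the difference by which these genes were picked, which favours such calls. Populations and batches cannot be told apart in this comparison.

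CRE02924 and CRE07273 had the most negative differences. CRE02924, low with both generations at 30 °C in control-selected larvae, stood in the ancestor at 64.4, 84.8, 47 and 58.5 CPM with parents at 30 °C, against 6.46, 5.38, 6.17 and 7.74 CPM with parents at 20 °C (larvae at 30, 30, 20 and 20 °C). The ancestor groups did not overlap, and the difference between populations was −5.05 ± 0.41 (adjusted p = 2.3e-07). CRE07273, on linkage group 1, had no read in either control-selected library of both generations at 30 °C, against 2.67 and 2.31 CPM with parents at 20 °C, and was at least 9.75-fold lower (against 3 counts over the 2 libraries). In batch C alone it passed the filter on low counts only through the latter 2 libraries, with 10 reads each. In ancestor larvae at 30 °C it had 27.4 and 24.7 CPM with parents at 30 °C, against 3.9 and 2.74 CPM with parents at 20 °C (difference between populations adjusted p = 0.0048).

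Other genes with a control-selected interaction also had an ancestor effect opposite to their control-selected effect in larvae at 30 °C. CRE01964 had 923 and 989 CPM with parents at 30 °C, against 68.8 and 65.7 CPM with parents at 20 °C, in ancestor larvae at 20 °C, so the ancestor offspring of heated parents were high without larval heat. CRE20636 had 347 and 340 CPM with parents at 30 °C, against 18.8 and 20.8 CPM with parents at 20 °C, in the same larvae. Their differences between populations were −3.83 ± 0.38 and −4.26 ± 0.37 (adjusted p = 2.7e-06 and 6.9e-07). Over all tested genes 3.77% were called higher and 1.25% lower in the ancestor. With 13 of the 14 interactions negative, that excess of rises favours opposite signs. Of the 14 interaction genes, 10 were called in the ancestor with the sign opposite to the interaction and 0 with the same sign. That is the sign of the interaction, not of the control-selected effect in larvae at 20 °C. The latter could share the ancestor's sign, as in CRE30999 (2.60, against 1.61 in the ancestor), or not, as in CRE18121 (−0.163, against 2.79).

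The largest positive differences from the ancestor were those of CRE18640 and CRE_PX356_5228. CRE18640 had 3.94, 2.08, 4.28 and 4.65 CPM with parents at 30 °C, against 0.267, 1.85, 3.09 and 3.19 CPM with parents at 20 °C, in control-selected larvae, where the ranges overlap. In the ancestor it had 1.77, 0.652, 7.47 and 10.8 CPM with parents at 30 °C, against 5.03, 4.79, 47.2 and 50.7 CPM with parents at 20 °C (larvae at 30, 30, 20 and 20 °C in each list). The difference was 3.27 ± 0.48 (adjusted p = 0.00034). It rests on the batch A values of 47.2 and 50.7 CPM. In batch B, outside this fit, the 4 ancestor libraries with parents and larvae at 20 °C had 2.4 to 3.17 CPM. CRE_PX356_5228 differed by 2.93 ± 0.68 (adjusted p = 0.023), a call that was lost without 11 of the 16 single libraries left out in turn.

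Against heat-selected larvae 83 of 13005 genes (0.638%) differed, 48 with a higher (0.369%) and 35 with a lower effect (0.269%) in control-selected larvae. Of these, 77 were called in heat-selected larvae, against 9.47% over all genes. Of the 82 tested in batch C, 1 was called in control-selected larvae, against 0.151% over all genes. Picking by the difference favours such calls here too. The fitted signs were opposite in 42 of the 82, which were picked for the difference as above. Over all tested genes the signs matched in 64.3%. Scaled to total counts, 37 were higher and 52 lower, which turns the majority. In the fit of all 48 libraries with batch as a term 4 genes were called, 0 higher and 4 lower.

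CRE29200 had the largest positive difference. It stood at 13.4, 17.2, 29.4 and 34.9 CPM with parents at 30 °C, against 17.9, 20.6, 17.2 and 14.7 CPM with parents at 20 °C, in control-selected larvae, and at 18.1, 14.1, 18.9 and 27.5 CPM with parents at 30 °C, against 278, 283, 53.2 and 55.5 CPM with parents at 20 °C, in heat-selected larvae (larvae at 30, 30, 20 and 20 °C). In these libraries only the heat-selected groups were free of overlap (difference 3.03 ± 0.22, adjusted p = 6.4e-08). CRE01098 lay between 2.54 and 6.41 CPM in all 8 control-selected libraries. In heat-selected larvae at 30 °C it had 2.65 and 6.51 CPM with parents at 30 °C, against 158 and 191 CPM with parents at 20 °C (difference between populations 2.92 ± 0.54, adjusted p = 0.0074). These heat-selected values are from batch E. The 4 batch F libraries at 30 °C with parents at 20 °C, outside this fit, were lower. They had 8.42 to 68.1 CPM of CRE01098 and 19.8 to 135 CPM of CRE29200.

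CRE07273 and CRE02924 were the largest negative differences here too, at −4.90 ± 1.08 and −4.26 ± 0.66 (adjusted p = 0.036 and 0.0015), the value of CRE07273 being a fit to libraries at 0 and so dependent on the prior count. CRE02924 had 0.664, 2.9, 12 and 9.75 CPM with parents at 30 °C, against 0.309, 0.313, 1.24 and 2.17 CPM with parents at 20 °C, in heat-selected larvae (larvae at 30, 30, 20 and 20 °C). At 30 °C it was thus low in both heat-selected groups of batch E, while in control-selected larvae of batch C it was low only with heated parents. In batch F, outside this fit, the 4 heat-selected libraries at 30 °C with parents at 20 °C ran from 0 to 44.1 CPM. The call of CRE07273 was lost without 12 of the 16 single libraries left out in turn, and the 4 named differences from heat-selected larvae were not called in the fit of all 48 libraries.

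Of the genes named for the other populations, CRE27885 was called here over both larval temperatures, and CRE02924 and CRE18121 were called in larvae at 30 °C and for the interaction. CRE03443, the second largest rise in the ancestor, had 0.394, 1.63, 3.92 and 3.8 CPM with parents at 30 °C, against 0.267, 0.462, 0 and 0.563 CPM with parents at 20 °C (larvae at 30, 30, 20 and 20 °C; adjusted p = 0.17). CRE_PX356_2393, a fall in the ancestor, had 3.94, 2.38, 2.32 and 1.27 CPM with parents at 30 °C, against 4.27, 2.31, 3.67 and 3.75 CPM with parents at 20 °C (adjusted p = 0.83). CRE26693 and CRE27448, the largest rise and fall in heat-selected larvae, were too low to be tested in batch C. CRE18121 fell in heat-selected larvae by 3.67 ± 0.29 (SE) on the log2 scale, and over both larval temperatures its control-selected value was −2.29 ± 0.63 (adjusted p = 0.26), while in larvae at 30 °C it was −4.01 ± 0.45 (adjusted p = 0.0012).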

How the data were processed

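The authors deposited, for each library, a table of whole read counts for each gene model. Per the submitters' processing notes the aligner was GSNAP and the counter HTSeq. The genome build and the use of strand are not given in the sources used here, so reads from overlapping antisense genes cannot be told apart. Each file lists 24723 gene models; reads in no gene (21.3 to 32.5% of a batch C library), ambiguous or not aligned were left out.

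Groups follow the labels. edgeR (4.0.16, R 4.3.3) was run on the deposited counts with TMM scaling, the filter of filterByExpr (minimum count 10) and the quasi-likelihood test, adjusted over all genes tested (Benjamini-Hochberg, threshold 0.05). The parental effect came from an additive model of the 8 libraries, the effects at each larval temperature and the interaction from their 4 group means, the population differences from 24 libraries (replicates 1 and 2), and the larval effect from the 8 control-selected libraries of batch D. Scripts were tested on simulated data. Printed CPM are counts over library size times the TMM factor of all 48 libraries, and a fold change is parents at 30 °C over parents at 20 °C. Replicates within a batch C group differed beyond sampling noise (chi-square per degree of freedom 12.5 to 19.2).

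Genes were named by rule: in each comparison the 2 rises and 2 falls largest in log2 fold change among called genes whose average log2 CPM was 1 or more. Lists by gene function could not be run, since 15243 models matched a locus tag of the PX506 assembly but 0 a gene name. The comparisons, members and lists were chosen with earlier results of these data known. DESeq2 (1.42.0), limma-voom (limma 3.58.1) and the alternatives given at the end were also run.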

Additional observations from a re-analysis of the deposited data

Results flagged for a closer look

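The parental effect differed between larval temperatures by a test of the difference itself in 14 genes, with log2 differences of 3.02 for CRE15096, −4.85 for CRE02924 and −4.53 for CRE24499. It differed between control-selected and ancestor larvae in 223 genes, by 3.27 for CRE18640, 2.93 for CRE_PX356_5228, −5.05 for CRE07273 and −5.05 for CRE02924 on the log2 scale. It differed between control-selected and heat-selected larvae in 83 genes, by 3.03 for CRE29200, 2.92 for CRE01098, −4.90 for CRE07273 and −4.26 for CRE02924. CRE07273 had no read in 2 libraries, so its fitted differences depend on the prior count and are no bound.

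A single library lay far from its group in CRE_PX356_1986, where 1 control-selected library of batch D at 20 °C had 54.5 CPM and the other 3 had 2.48 to 2.83 CPM. Its gap to the nearest other library was 0.993 of the range of the group. Of 8 groups examined this was the one beyond the 95% limit, and chance gives about 1 in 20.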

How the results depend on the processing

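Wherever a named gene was still tested under another setting, its direction did not turn: 518 of the recomputed values kept their side of the threshold and 133 fell short of it. Genes dropped by a setting's filter are not among these values. The named genes are the largest changes and every setting reuses these libraries, so a turn was unlikely from the outset. Counts of calls moved more. Without a filter on low counts they were 182 (parental effect), 263 (larvae at 30 °C), 124 (larvae at 20 °C), 172 (interaction), 394 (minus ancestor) and 174 (minus heat-selected), and with DESeq2 72, 99, 19, 45, 420 and 202. At a minimum count of 50 they were 26 (larvae at 30 °C), 9 (interaction) and 0 (larvae at 20 °C, edgeR, 648 at an unadjusted p under 0.05). Scaled to total counts in genes they were 10 (parental effect), 8 (larvae at 20 °C) and 9 (interaction), as the median gene then shifted to −0.256 in larvae at 30 °C and −0.358 in the interaction. The interaction also gave 8 with DESeq2's size factors and 9 with limma-voom. With 16 control-selected libraries and batch as a term the counts were 29, 79, 22 and 60 (parental effect, larvae at 30 °C, larvae at 20 °C, interaction), and CRE10232 had an adjusted p of 0.0998 for the parental effect. With all 48 libraries they were 24 (interaction), 4 (minus heat-selected) and 746 (heat-selected). With the percent of reads not aligned as a covariate edgeR called 0 in larvae at 30 °C, 0 in larvae at 20 °C and 0 for the interaction. The average effect from 4 group means gave 47 calls, and summed replicates 20, of which 13 were among the 18. Fits of 8 libraries alone, added after seeing the data, gave 1784 in the ancestor and 343 in heat-selected larvae. Scaled to total counts, ancestor calls were 252 higher and 291 lower (490 and 163 by TMM) and heat-selected calls 805 and 399 (666 and 565 by TMM).

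Whether same-numbered replicates pair is not given by the labels. Across genes, the differences of replicate 1 from 2 correlated by 0.28 between the parental groups in larvae at 30 °C and by 0.312 in larvae at 20 °C, but by −0.393 to −0.0977 between larval temperatures, so the numbers were not taken to pair all 4 groups. A replicate block gave 7 (parental effect), 17 (larvae at 30 °C), 0 (larvae at 20 °C, edgeR, 787 unadjusted), 2 (interaction), 49 (minus heat-selected) and 414 (ancestor). With numbers crossed in larvae at 30 °C, an alternative chosen after seeing the data, it gave 60 (parental effect) and 551 (interaction).

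Leaving out each library gave 2 to 41 (parental effect), 5 to 127 (larvae at 30 °C), 0 to 14 (larvae at 20 °C), 0 to 86 (interaction), 134 to 320 (minus ancestor), 47 to 139 (minus heat-selected), 295 to 739 (ancestor), 673 to 1664 (heat-selected) and 2817 to 3954 (larval effect, batch D). Where a group kept 1 library, it was assumed to vary like the others. The causes of these shifts were not tested. The shallowest batch C library held 2476342 counts, and the smallest size of effect this depth can show was not tested.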
